A study of Homo sapiens with 4 samples.

Results

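FGF receptors are tyrosine kinases at the cell surface, and their feedback inhibitors are proteins that cells make to damp the signal those receptors send. The 10 genes described here were taken by symbol: the receptor kinases FGFR1, FGFR2, FGFR3 and FGFR4, the decoy-like receptor FGFRL1, the Sprouty genes SPRY1, SPRY2 and SPRY4, the Sprouty-related SPRED1 and the phosphatase DUSP6. They are 10 of the 60483 gene identifiers counted, and each matched 1 identifier. Gene expression was measured by RNA sequencing in cells of C4-2, a human prostate cancer cell line derived from LNCaP that grows without added androgen. The study compared 2 libraries of enzalutamide-resistant cells with 2 libraries of control cells. Prostate cancer is treated with enzalutamide, which is an antiandrogen. The labels give 1 month of culture with the drug or without it, so exposure to the drug and resistance cannot be told apart, and they do not say what the control cells received in its place. Medium with serum is named for both groups, and the growth protocol also names FGF-2 with an expansion medium without saying which cells, if any, were given it. A part of added FGF-2 in the results below was not tested.

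FGF ligands bind FGFR1 to FGFR4 together with heparan sulfate or a klotho co-receptor. The activated kinase signals through the docking protein FRS2 and GRB2 to RAS, RAF, MEK and ERK. ERK activity induces transcription of Sprouty, Spred and DUSP6 genes, whose proteins restrain RAS and RAF signalling or dephosphorylate ERK. Transcripts of DUSP6 and SPRY4 are therefore widely used as readouts of ERK activity. In the prostate, FGF signals pass between stroma and epithelium, and FGFR1 has been studied for its appearance in prostate cancer epithelium.

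Of the 10 genes, 6 were called higher in resistant cells and 3 lower, and FGFR3 was not called. FGFR1, FGFRL1 and SPRED1 were each close to 2-fold higher. SPRY2, DUSP6 and SPRY4 rose more, by 2.25-fold, 4.01-fold and 9.02-fold, and had at most 103 reads in any library. FGFR2, FGFR4 and SPRY1 fell. For comparison, 33.0% of the 20325 genes tested were called higher and 31.7% lower, and among 13942 protein-coding genes the shares were 42.3% and 31.4%. Of all called genes 51% were higher, or 64.4% with libraries scaled by total count. Of the 10 genes, 3 were called at least 2-fold higher, against 7.58% of all genes tested. SPRY4, counted among the 3 and the 6, passed the count filter through the resistant libraries. Calls use the quasi-likelihood test of edgeR, adjusted over all genes tested, with a threshold of 0.05. CPM are reads per 1000000 gene counts, on library sizes scaled by TMM (a scaling that assumes most genes keep their share).

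Gene counts per library came to 45033885 and 39047453 in resistant cells, against 25589724 and 29866008 in control cells. Reads not aligned were 20.32% and 20.66% of HTSeq records in resistant libraries, against 36.95% and 34.16% in control libraries, and the part of this difference in the results was not tested. The luminal prostate markers KLK3 and HOXB13, named after their values were seen, were read in every library. KLK3 had 487.4 and 477.3 CPM in resistant libraries, against 662.9 and 691.6 CPM in control libraries, and HOXB13 had 357.6 and 344.4 CPM in resistant libraries, against 235.1 and 261.1 CPM in control libraries. The 8 neural stem cell markers summed to 2.726 to 2.758 CPM in resistant and 4.195 to 5.595 CPM in control libraries. Of these, SOX1 and SOX2 had at most 1 read in any library, but NES had at least 57 and PAX6 at least 30. The 8 fibroblast markers summed to 8.878 to 9.374 CPM in resistant and 9.187 to 11.37 CPM in control libraries, with COL1A2 at 0. COL1A1 (called lower), COL3A1 (called higher) and PDGFRB (not called) had at least 150, 25 and 37 reads in every library. The 5 endothelial markers summed to 3.136 to 3.65 CPM in resistant and 4.312 to 4.782 CPM in control libraries. Most of that sum was VWF, called lower, while KDR had 24 and 13 reads in resistant libraries, against 0 and 1 in control libraries. The 6 leukocyte markers summed to 1.058 to 1.351 CPM in resistant and 1.636 to 1.746 CPM in control libraries, with CD3E at 0. CD68, not called, had at least 31 reads in every library. In such bulk libraries fewer cells of a type and less RNA per cell cannot be told apart.

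**Figure D1:**
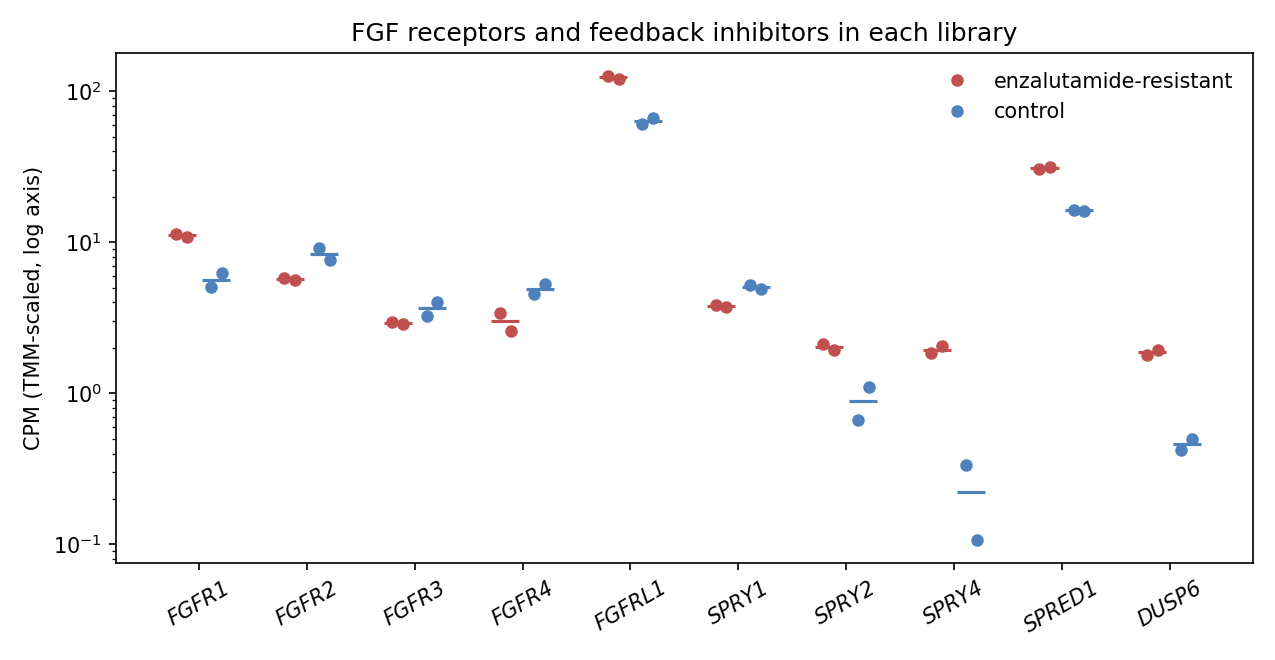
Level of each gene in each library, in CPM on a log axis, with enzalutamide-resistant libraries (red) left of control libraries (blue); dots are libraries and lines are means of 2. Both resistant dots lie below both control dots for FGFR2, FGFR3, FGFR4 and SPRY1 and above them for the other 6 genes. For 2 libraries against 2, such separation alone gives p = 0.33 in an exact permutation test. Its share over all genes is not given here.

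Promoter windows are shown for SPRY4, DUSP6 and SPRY2, the 3 members called at least 2-fold higher, so that their letters can be set side by side. Windows run from 250 bases before to 50 bases after a RefSeq start (build GRCh38.p14), and 9 of the 10 genes had one, with 17 windows in all. SPRY2 had 3 windows, of which the first of the table is printed. Each line is read 5′ to 3′ on the gene's strand. Capitals mark matches to TCAATGGA, a form of the site of Capicua, a repressor of feedback genes that ERK inactivates.

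DUSP6, chr12:89352452-89352751, minus strand: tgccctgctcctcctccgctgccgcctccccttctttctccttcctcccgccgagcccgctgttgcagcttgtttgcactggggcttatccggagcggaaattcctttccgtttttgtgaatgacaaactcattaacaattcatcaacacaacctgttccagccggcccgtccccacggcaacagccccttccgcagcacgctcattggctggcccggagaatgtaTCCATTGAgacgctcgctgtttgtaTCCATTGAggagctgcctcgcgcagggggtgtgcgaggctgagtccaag

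SPRY4, chr5:142324198-142324497, minus strand: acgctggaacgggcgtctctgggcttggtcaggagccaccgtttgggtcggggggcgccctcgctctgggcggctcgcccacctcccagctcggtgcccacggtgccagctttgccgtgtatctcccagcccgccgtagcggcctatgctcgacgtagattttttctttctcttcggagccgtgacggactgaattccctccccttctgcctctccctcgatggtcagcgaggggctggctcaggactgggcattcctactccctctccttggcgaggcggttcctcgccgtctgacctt

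SPRY2, chr13:80341077-80341376, minus strand: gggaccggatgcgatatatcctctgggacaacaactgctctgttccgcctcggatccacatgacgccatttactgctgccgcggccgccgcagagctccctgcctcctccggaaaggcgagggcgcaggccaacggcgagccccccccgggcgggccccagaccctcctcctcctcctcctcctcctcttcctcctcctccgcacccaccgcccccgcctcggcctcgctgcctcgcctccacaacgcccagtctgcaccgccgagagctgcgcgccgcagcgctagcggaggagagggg

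The DUSP6 window held TCAATGGA at 2 places, both on the opposite strand and so printed as TCCATTGA. The first base of the match lay at position -24 from the start and at position 2 after it. This form was added to the search after the windows had been read. Of all 35116 promoter windows of the table, 0.51% held it on either strand. Other motifs searched on both strands included TGAATGAA and TGAATGGA (Capicua), CCGGAAGT (ETS factors), TGANTCA (AP-1) and TGACGTCA (CRE). These were found in 1.65%, 1.03%, 4.14%, 7.71% and 1.85% of all windows, and in none of the 17 windows of these genes. A match is a description of the letters and not a bound site.

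Among the receptors, FGFR1, a receptor kinase for many FGF ligands and on chromosome 8 at 38400215 to 38468834 (minus strand, GRCh38), had 11.39 and 10.81 CPM in resistant libraries, against 5.076 and 6.236 CPM in control libraries. Both resistant libraries were above both control libraries. The gene rose by a log2 fold change of 0.96 (SE 0.1, adjusted p = 4.66e-06 by edgeR), a 1.95-fold difference. With a correction for transcript length and GC content the log2 fold change was 0.58 (edgeR adjusted p = 7.85e-05). Its span overlaps LETM2 on the other strand, which had 126 and 102 reads in resistant libraries, against 57 and 84 in control libraries. The sources used here do not give the strand setting of the counting, so reads in that overlap are uncertain.

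FGFR2, the receptor that epithelia express in a form tuned to stromal ligands, is on chromosome 10 at 121478334 to 121598458 (minus strand). It had 5.765 and 5.621 CPM in resistant libraries, against 9.187 and 7.591 CPM in control libraries. The groups did not overlap, and control replicate 1 was the highest library. FGFR2 fell by 0.55 on the log2 scale (SE 0.108, adjusted p = 0.000815 by edgeR), to a level 1.47-fold lower. The log2 fold change was -0.36 when libraries were scaled by total count (edgeR adjusted p = 0.0118). Gene counts do not separate its splice forms.

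FGFR4, the receptor that pairs with beta-klotho for the hormone FGF19, is on chromosome 5 at 177086886 to 177098144 (plus strand). It had 3.38 and 2.606 CPM in resistant libraries, against 4.572 and 5.274 CPM in control libraries. The groups did not overlap, although the 2 libraries of each group differed from each other. FGFR4 was 1.64-fold lower in resistant cells (log2 fold change -0.71, SE 0.154, adjusted p = 0.00156 by edgeR). The length and GC correction gave -1.08 (edgeR adjusted p = 7.61e-06).

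FGFR3, a receptor whose activating mutations are known from bone growth disorders and bladder cancer, is on chromosome 4 at 1793293 to 1808872 (plus strand). It had 2.945 and 2.895 CPM in resistant libraries, against 3.272 and 4.027 CPM in control libraries. The resistant libraries lay below, but the gap to control replicate 1 was smaller than the spread within the control pair. FGFR3 was not called, with a log2 fold change of -0.33 (SE 0.146, adjusted p = 0.0685 by edgeR). It became called without control replicate 1, at -0.46 (edgeR adjusted p = 0.0126), and with the length and GC correction, at -0.66 (edgeR adjusted p = 0.000895).

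FGFRL1 resembles the receptors outside the cell but lacks the kinase domain, and it is on chromosome 4 at 1009936 to 1026897 (plus strand). It had 125.6 and 120.7 CPM in resistant libraries, against 60.41 and 66.21 CPM in control libraries. The difference between groups was far larger than the spread within either pair. FGFRL1 rose 1.94-fold (log2 fold change 0.96, SE 0.0516, adjusted p = 1.51e-08 by edgeR), and 0.645 was the smallest log2 fold change over 13 alternative settings.

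Levels of different genes were compared per kilobase of merged exons. FGFRL1 stood first in both groups, with 29.7 ± 0.835 CPM per kilobase in resistant cells and 15.3 ± 0.99 in control cells (SD, n = 2). The next receptor was FGFR1 in resistant cells, at 0.802 ± 0.0295 CPM per kilobase, and FGFR2 in control cells, at 1.11 ± 0.149. In resistant cells FGFR2 (0.751 ± 0.0135), FGFR4 (0.62 ± 0.113) and FGFR3 (0.602 ± 0.00727) followed, and FGFR4 overlapped FGFR3 between libraries. In control cells FGFR4 (1.02 ± 0.103) did not differ from FGFR2 beyond the spread of the libraries, and FGFR3 (0.753 ± 0.11) and FGFR1 (0.409 ± 0.0593) came last. FGFR1 made up 28.5% and 29.4% of the per-kilobase sum of the 4 kinases in resistant libraries, against 11.5% and 13.3% in control libraries. FGFR4 made up 24.2% and 20.3% in resistant libraries, against 29.6% and 32.4% in control libraries. The sum itself was 2.89 and 2.66 CPM per kilobase in resistant libraries, against 3.2 and 3.38 in control libraries. FGFR1 took a larger share in both resistant libraries, and the kinase sum was a little lower in both. These shares are a description and were not tested. With the length of the longest coding transcript, a length chosen after the data were seen, the mean FGFR1 share was 38.6% in resistant and 17.8% in control libraries. The order of the lowest 2 kinases in control cells turned with that length, as FGFR3 then had a mean share of 15.6%.

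**Figure D2:**
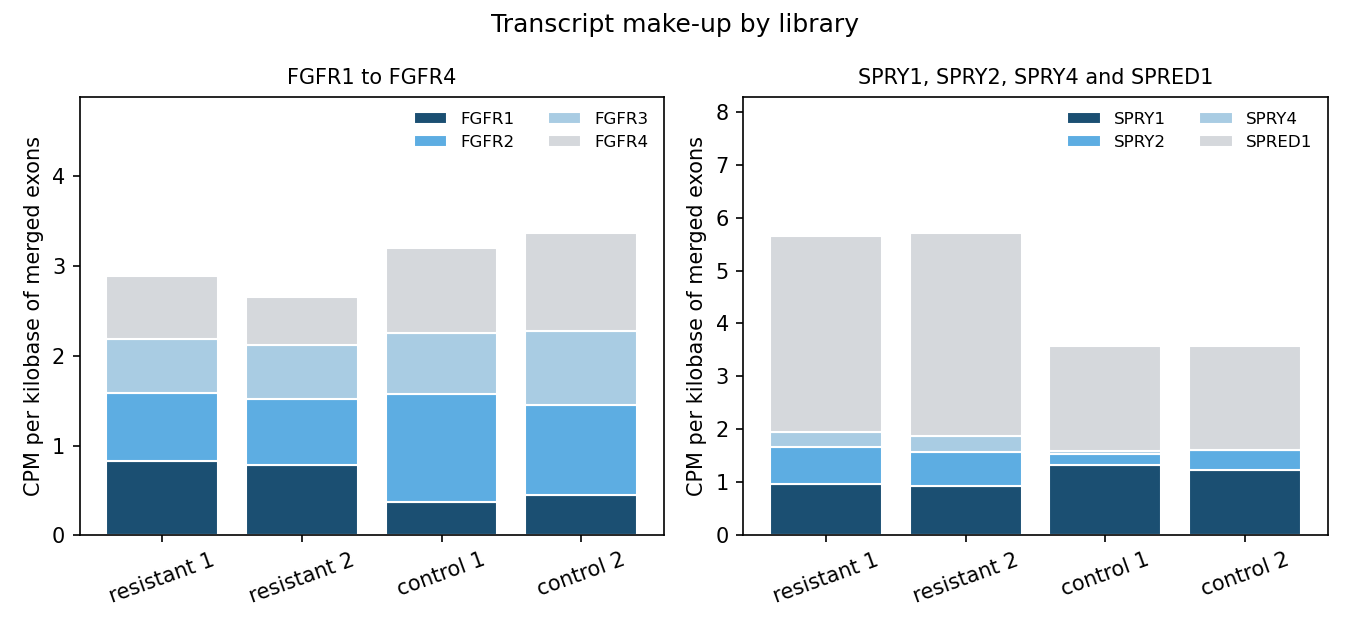
Stacked bars of CPM per kilobase of merged exons in each library, resistant libraries left of control libraries, for the 4 receptor kinases (left panel) and for 3 Sprouty genes with SPRED1 (right panel). FGFR1 takes 28.5% and 29.4% of the kinase sum in resistant libraries, against 11.5% and 13.3% in control libraries.

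Among the feedback inhibitors, SPRY4 is a Sprouty protein that acts between the receptor and RAF, encoded on chromosome 5 at 142310427 to 142326455 (minus strand). It had 89 and 85 reads in resistant libraries, against 8 and 3 in control libraries. Its level was 1.846 and 2.051 CPM in resistant libraries, against 0.336 and 0.107 CPM in control libraries. SPRY4 was near the detection limit in control cells and was read in every library. It rose 9.02-fold (log2 fold change 3.17, SE 0.338, adjusted p = 5.76e-06 by edgeR). The size rested on few control reads: the log2 fold change was 4.15 without control replicate 1 and 2.53 without control replicate 2. SPRY4 could pass the count filter only through the resistant libraries, as 1 of the 2 control libraries was under it. The adjusted p of SPRY4 does not allow for that selection. The antisense gene SPRY4-AS1 overlaps its span and had 2 and 8 reads in resistant libraries, against 4 and 1 in control libraries.

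DUSP6 removes phosphate from ERK in the cytoplasm and is on chromosome 12 at 89347232 to 89353271 (minus strand). It had 87 and 80 reads in resistant libraries, against 10 and 14 in control libraries. Its level was 1.804 and 1.93 CPM in resistant libraries, against 0.419 and 0.499 CPM in control libraries. The groups were well apart, and each pair was tight. DUSP6 rose 4.01-fold (log2 fold change 2.00, SE 0.237, adjusted p = 1.44e-05 by edgeR), and the log2 fold change stayed between 1.90 and 2.19 over 13 alternative settings. An antisense gene that overlaps its span, AC024909.2, had at most 3 reads in any library.

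SPRY2, the Sprouty protein most studied in prostate cancer, is on chromosome 13 at 80335976 to 80340951 (minus strand). It had 103 and 80 reads in resistant libraries, against 16 and 31 in control libraries. Its level was 2.136 and 1.93 CPM in resistant libraries, against 0.671 and 1.105 CPM in control libraries. The control libraries differed from each other by more than the resistant ones, and the groups did not overlap. SPRY2 was 2.25-fold higher (log2 fold change 1.17, SE 0.231, adjusted p = 0.000849 by edgeR). Without control replicate 1 the log2 fold change was 0.88, and without control replicate 2 it was 1.61.

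SPRY1, a close relative of SPRY2, is on chromosome 4 at 123396795 to 123403760 (plus strand) and had the opposite direction. It had 3.837 and 3.715 CPM in resistant libraries, against 5.244 and 4.918 CPM in control libraries. Both resistant libraries were below both control libraries. SPRY1 was 1.34-fold lower (log2 fold change -0.42, SE 0.12, adjusted p = 0.00871 by edgeR). This call was lost when libraries were scaled by total count (log2 fold change -0.24, edgeR adjusted p = 0.105), with DESeq2 (-0.37, DESeq2 adjusted p = 0.211) and without a count filter (-0.33, edgeR adjusted p = 0.0667).

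SPRED1 brings neurofibromin, which turns RAS off, to the membrane and is on chromosome 15 at 38252326 to 38357249 (plus strand). It had 30.57 and 31.63 CPM in resistant libraries, against 16.4 and 16.14 CPM in control libraries. The pairs were tight and well apart. SPRED1 rose 1.91-fold (log2 fold change 0.93, SE 0.0607, adjusted p = 7.56e-08 by edgeR), and its log2 fold change lay between 0.84 and 1.12 over 13 alternative settings.

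Per kilobase, SPRED1 was the highest of the feedback genes, at 3.76 ± 0.0907 CPM per kilobase in resistant cells and 1.97 ± 0.0222 in control cells (SD, n = 2). SPRY1 came next in both groups, at 0.953 ± 0.0217 in resistant cells and 1.28 ± 0.0581 in control cells. SPRY2 followed at 0.669 ± 0.048 in resistant cells and 0.292 ± 0.101 in control cells. DUSP6 had 0.403 ± 0.0192 in resistant cells and 0.0991 ± 0.0121 in control cells, and SPRY4 had 0.297 ± 0.0221 in resistant cells and 0.0337 ± 0.0246 in control cells. Of the summed level of SPRY1, SPRY2, SPRY4 and SPRED1, SPRY1 took 17.1% and 16.4% in resistant libraries, against 36.9% and 34.7% in control libraries. SPRY4 took 4.97% and 5.47% in resistant libraries, against 1.43% and 0.455% in control libraries. SPRY4 and DUSP6 had the lowest mean levels per kilobase of the 10 genes in both groups.

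**Figure D3:**
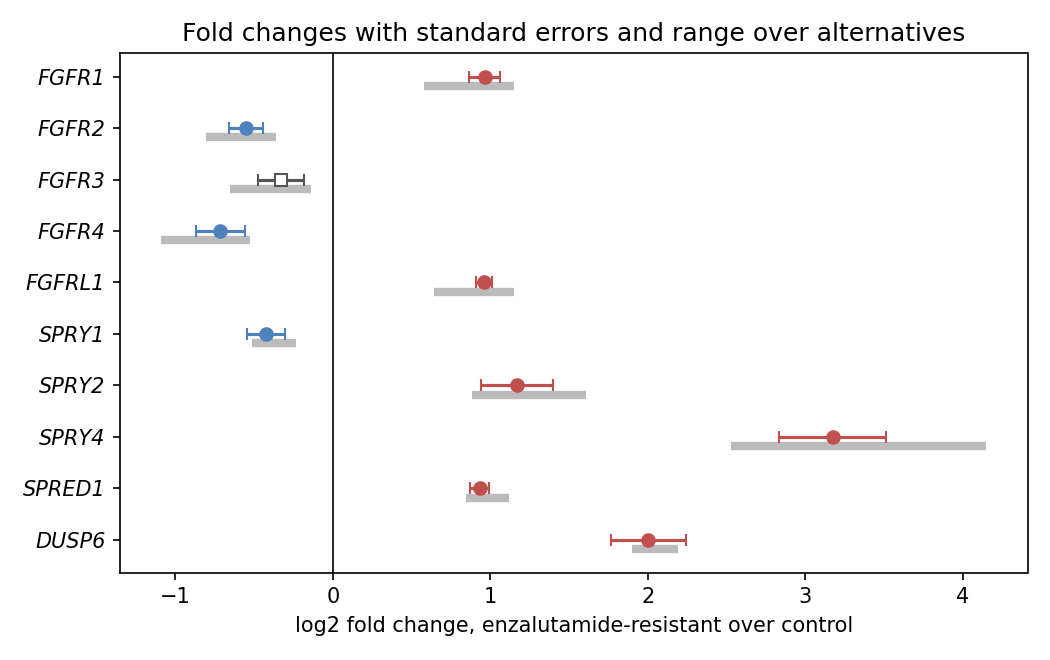
Log2 fold change of each gene, enzalutamide-resistant over control, with its standard error (whiskers) and, as a grey bar below it, the lowest and highest value over 13 alternative settings; the open square marks a gene not called. The 6 genes called higher lie above 0, and no grey bar reaches 0.

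Of the 22 genes of FGF ligands and their intracellular relatives, 6 passed the count filter, of which 2 were called higher and 1 lower (median log2 fold change 0.45, against -0.0162 over all genes tested). That median was 0.118 without control replicate 1 and 0.851 without resistant replicate 1, and 0.208 with the length and GC correction or 0.972 with a filter of 1 CPM. The gene called lower, FGF21, is counted here and in the median although it entered the fit only through the control libraries. So did FGF7, not called, while FGF22, not called, entered only through the resistant libraries. The median therefore depends in part on the filter. Among all protein-coding genes tested, 42.3% were called higher and 31.4% lower. FGF13, one of the FGF-like proteins that stay inside the cell and bind sodium channels, had 49.36 and 48.76 CPM in resistant libraries, against 22.57 and 22.95 CPM in control libraries. It rose 2.15-fold (log2 fold change 1.11, SE 0.0529, adjusted p = 5.39e-09 by edgeR). FGF12, of the same intracellular group, had 3.629 and 2.895 CPM in resistant libraries, against 1.384 and 1.817 CPM in control libraries, and rose 2.03-fold (edgeR adjusted p = 0.00061).

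FGF21, a hormone that signals through FGF receptors with beta-klotho, went the other way. It had 7 and 9 reads in resistant libraries, against 72 and 77 in control libraries. Both resistant libraries were under the filter of about 0.29 CPM, so FGF21 entered the fit only through the control libraries, had to differ, and is given without its test. Its fitted log2 fold change was -3.98. The secreted ligands FGF7, FGF17 and FGF22 were near the limit of detection and not called, with log2 fold changes of -0.63, 0.21 and 0.68 (for FGF17, edgeR adjusted p = 0.603). FGF7 entered the fit only through the control libraries and FGF22 only through the resistant libraries, so both are given without their test. FGF2, the ligand named in the growth protocol, had 5 and 7 reads in resistant libraries, against 7 and 10 in control libraries, and did not pass the filter. Of the 22 genes, 15 had fewer than 10 reads in every library and 5 had none.

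Of 16 co-receptors and binding proteins, 12 passed the filter, of which 9 were called higher and 0 lower, 8 of them at least 2-fold (median log2 fold change 1.16). The 9, the 8 and the median include FLRT3, which entered the fit only through the resistant libraries. Over all genes tested, 7.58% were called at least 2-fold higher. Among all protein-coding genes tested, 42.3% were called higher and 31.4% lower. All 12 log2 fold changes were above 0 in edgeR, so 0 were lower at an unadjusted p below 0.05, and DESeq2 called 0 lower. Corrected for length and GC content, the list median stood at 0.975. All 4 syndecans, core proteins that carry heparan sulfate, were called higher. SDC4 had 219.3 and 216.7 CPM in resistant libraries, against 70.47 and 71.56 CPM in control libraries, a 3.07-fold rise (edgeR adjusted p = 4.16e-11). SDC2, SDC1 and SDC3 rose 3.55-fold, 2.39-fold and 2.03-fold. KLB, the beta-klotho that FGF19 and FGF21 need, had 7.404 and 7.575 CPM in resistant libraries, against 6.712 and 6.735 CPM in control libraries, and was not called (log2 fold change 0.15, edgeR adjusted p = 0.155). It was called higher under total count scaling (0.34, edgeR adjusted p = 0.00575).

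KL and FLRT3 were picked out after their values were seen. KL, the co-receptor for the hormone FGF23, had 65 and 54 reads in resistant libraries, against 8 and 11 in control libraries, and rose 3.6-fold (edgeR adjusted p = 8.03e-05). FLRT3, a membrane protein that binds FGF receptors, had 151 and 136 reads in resistant libraries, against 1 and 7 in control libraries. Both control libraries were under the filter of about 0.29 CPM, so FLRT3 entered the fit only through the resistant libraries, had to differ, and is given without its test. Its fitted log2 fold change was 4.35, or 3.67 without control replicate 1 and 6.15 without control replicate 2.

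Of 24 genes of adaptors and the relay from RAS to ERK, all passed the filter, 15 were called higher and 4 lower, and the changes were small (median log2 fold change 0.22). With the length and GC correction 8 were called higher and the median was 0.0374. Among all protein-coding genes tested, 42.3% were called higher and 31.4% lower in the main fit. GAB1, a docking adaptor, had 12.69 and 12.42 CPM in resistant libraries, against 6.167 and 5.631 CPM in control libraries, and was 2.14-fold higher (edgeR adjusted p = 3.09e-07). MAPK3, which encodes ERK1, rose 1.67-fold, and the adaptor GRB2 rose 1.53-fold. NRAS, one of the RAS genes, fell to 138.9 and 139.9 CPM in resistant libraries, against 219.3 and 204.3 CPM in control libraries (log2 fold change -0.60, SE 0.0437, adjusted p = 1.91e-07 by edgeR).

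Of 13 other feedback inhibitors, all passed the filter, and 8 were called higher and 2 lower (median log2 fold change 0.33). The shares over protein-coding genes were 42.3% higher and 31.4% lower. DUSP5, a nuclear ERK phosphatase, had 14 and 14.16 CPM in resistant libraries, against 2.978 and 2.495 CPM in control libraries, and rose 5.17-fold (edgeR adjusted p = 2.07e-09). IL17RD, a membrane inhibitor also called SEF, rose 2.39-fold, SPRED2, the paralog of SPRED1, rose 1.84-fold, and CBL, a ubiquitin ligase for receptors, rose 1.52-fold. DUSP4 and DUSP9, the 2 genes called lower and so named after their values were seen, had log2 fold changes of -0.46 and -0.43 (edgeR adjusted p = 0.000645 and 0.00152).

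Of 12 genes that ERK signalling induces, 9 passed the filter, 5 were called higher and 2 lower (median log2 fold change 0.38), and DESeq2 called 3 higher. The median was 0.243 without control replicate 1 and 0.263 after the length and GC correction. The shares called over protein-coding genes were 42.3% higher and 31.4% lower, and a difference of this list from them was not tested. FOS, a subunit of AP-1, had 22.73 and 22.27 CPM in resistant libraries, against 0.923 and 0.82 CPM in control libraries. EGR1, an immediate-early transcription factor, had 220 and 190 reads in resistant libraries, against 1 and 10 in control libraries. Its log2 fold change was 4.41 (SE 0.33, adjusted p = 2.54e-07 by edgeR), and 3.67 without control replicate 1 or 6.67 without control replicate 2. EGR1, counted among the 5 and in the list median, could pass the filter only through the resistant libraries, as 1 of the 2 control libraries was under it. The adjusted p of EGR1 does not allow for that selection. PHLDA1 and MYC went down: PHLDA1 was 5.19-fold lower (edgeR adjusted p = 3.77e-08) and MYC was 1.71-fold lower (edgeR adjusted p = 2.62e-08). ETV4 and ETV5, ETS factors used with DUSP6 and SPRY4 as readouts of ERK and picked out after their values were seen, had log2 fold changes of 0.79 and 0.97. Their edgeR adjusted p were 0.0259 and 0.00562. The ETV4 call was lost in 6 of 12 alternative settings, with an edgeR or DESeq2 adjusted p of up to 0.233, among them without control replicate 1, control replicate 2 or resistant replicate 1, while its log2 fold change stayed between 0.55 and 1.00. The ETV5 call was lost with DESeq2 at a log2 fold change of 1.04 (DESeq2 adjusted p = 0.105).

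Of 5 repressors that ERK inactivates or their partners, 5 were called higher (median log2 fold change 0.52), against 42.3% of protein-coding genes. With the length and GC correction 2 were called higher, and the median was -0.0363. CIC, which encodes Capicua, had a log2 fold change of 0.52 (SE 0.0733, adjusted p = 6.35e-05 by edgeR), or -0.0931 (edgeR adjusted p = 0.336) with the correction. ERF had 0.22 (edgeR adjusted p = 0.033), or -0.0363 (edgeR adjusted p = 0.729) with the correction, and its call was kept in 5 of 13 alternatives. ETV3 rose 1.8-fold and ATXN1L, a partner of Capicua, 1.46-fold.

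**Figure D4:**
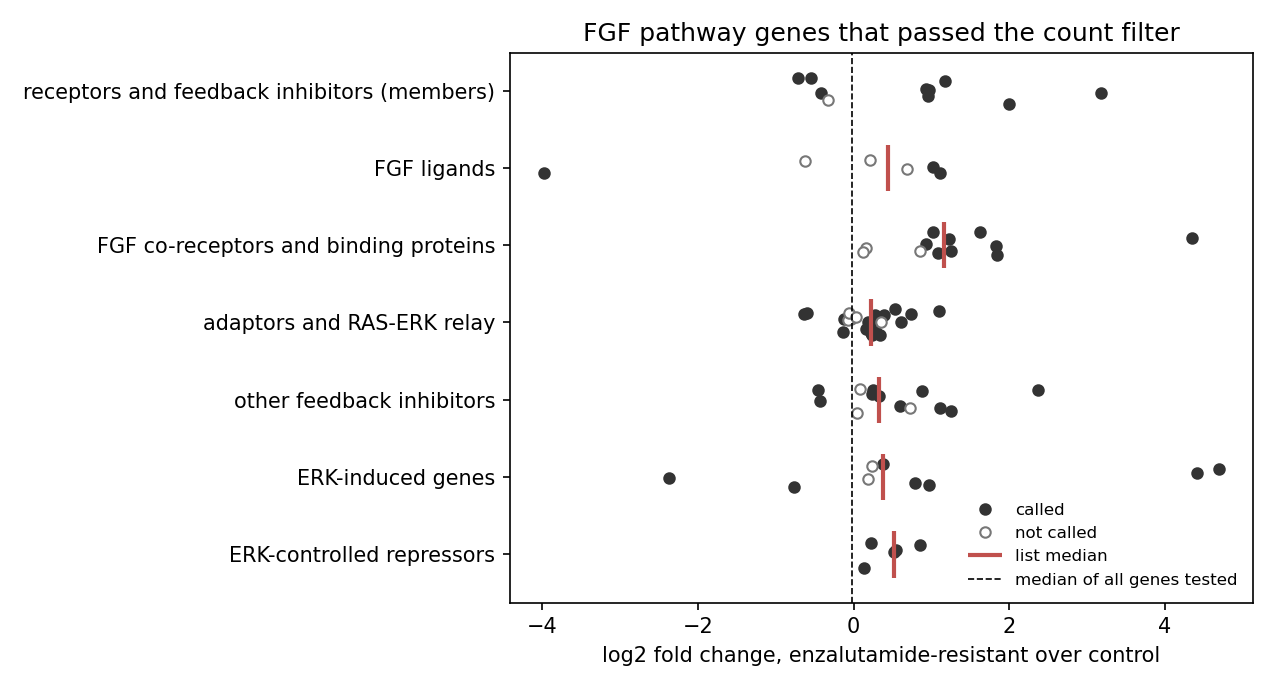
Log2 fold change, enzalutamide-resistant over control, of each gene that passed the count filter, by list; filled dots are called genes, open dots are not called, red lines are list medians and the dashed line is the median of all 20325 genes tested. Co-receptors and binding proteins have the highest list median, 1.16, with 9 of 12 called higher and 0 lower. The 9 include FLRT3, which entered the fit only through the resistant libraries.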

How the data were processed

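RNA of 4 libraries of C4-2 cells was sequenced, and the deposited tables hold raw read counts for every gene of a library, not normalized. Alignment was by STAR 2.5.2b to GRCh38 and counting by HTSeq, per the submitters' processing notes. The annotation release, counting mode and strand setting were not given in sources used here. The last 5 rows of each table name no gene, held 55.41% to 74.4% of HTSeq records and were left out of library sizes and tests. Identifiers without version were matched to GENCODE 29 (56753 of 60483), which gave symbols, positions and merged exon lengths.

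Counts were filtered with filterByExpr (minimum count 10, about 0.29 CPM here, in at least 2 libraries), scaled with TMM and fitted with group as the only term by the quasi-likelihood test of edgeR 4.0.16 in R 4.3.3, with Benjamini-Hochberg adjustment over 20325 genes and 2 residual degrees of freedom. The standard error is the log2 fold change divided by the square root of F. Values are CPM per library or mean ± SD. All 10 members passed the filter. Within a pair, counts differed beyond sampling noise (chi-square per degree of freedom 2.38 in resistant and 5.67 in control cells). Each library was treated as 1 replicate, which these values cannot establish. No label names separate cultures, so the p-values reflect spread among these libraries alone, which may be technical.

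Members, gene lists and tests were chosen with earlier results of these data known. Besides the members, the text names every ligand gene that passed the filter, FGF2 and KLB, and up to 4 called genes with the smallest adjusted p from each other list. Alternatives were DESeq2 1.42.0, its size factors, total count scaling, no filter, a filter of 1 CPM in 2 libraries, protein-coding genes alone, each library left out, a replicate block, and offsets from splines of log2 CPM on exon length and GC content (99% of genes tested had both). Promoter windows are from RefSeq. No protein comparison was made, and some marker and motif results are not reported here.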

Additional observations from a re-analysis of the deposited data

How the results depend on the processing

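Over 13 alternatives, the members called higher numbered 6 in each, and those called lower 2 to 4; no member changed direction. FGFR3 became called with a filter of 1 CPM (log2 fold change -0.377), protein-coding genes alone (-0.422), the length and GC correction (-0.656) and that correction with the replicate block (-0.649), and ranged from -0.46 to -0.155 with each library left out. SPRY1 was no longer called with DESeq2 (-0.367), no count filter (-0.328) and total count scaling (-0.236). Total count scaling raised log2 fold changes by a median of 0.188, and 64.4% of called genes were higher, against 51% with TMM. DESeq2 called 4098 genes lower over all genes, against 6443, as well as 3 ERK-induced genes higher, 1 other feedback inhibitor lower and 2 relay genes lower. The relay genes called lower were also 2 with no count filter and with total count scaling, and 2 to 5 with each library left out. Relay genes called higher were 8 with the length and GC correction, with or without the replicate block. The ERK-controlled repressors called higher were 3 with a filter of 1 CPM or protein-coding genes alone, 3 to 4 with each library left out, and 2 with the length and GC correction with or without the block, where 1 was called lower. Their median log2 fold change turned to -0.0363 with the correction (-0.0382 with the block as well), CIC to -0.0931 (-0.0949) and ERF to -0.0363 (-0.0382). The cause of these shifts was not tested. Deviations of same-numbered libraries from their group means were nearly uncorrelated across genes (-0.0228). With 2 libraries per group this cannot show whether same-numbered libraries were prepared together. With the replicate block 6647 genes were called higher and 6444 lower, with 6 and 3 of the members. SPRY4, DUSP6 and SPRY2 had 3 to 31 reads in control libraries, which limits the precision of their fold changes.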
